A study of Mus musculus with 4 samples.

Results

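The genes described here are 10 members of the Krüppel-like factor (KLF) family of transcription factors, Klf2, Klf3, Klf4, Klf6, Klf7, Klf9, Klf10, Klf11, Klf12 and Klf13. They were taken by gene name from the 23996 genes of the authors' deposited table, and each was found in 1 row of its own. Messenger RNA was sequenced from follicular helper T (TFH) cells, the CD4 T cells of germinal centres that support B cell selection. They were sorted from the spleen of mice on CD4, CD44, CXCR5 and PD-1. Wild-type mice (WT) carried the floxed Etv5 allele, Etv5f/f, with no Cre named. Conditional knockout mice (Etv5 cKO, Etv5f/f;Cd4-Cre) carried the same allele with Cre under Cd4 control, which is active from a thymic stage onward and so acts in CD4 and CD8 T cells alike. Both genotypes were immunized with ovalbumin in alum and sampled after 7 days, and no age is stated in the sources used here. Because the WT mice are not described as carrying Cre, Cre itself and loss of Etv5 cannot be told apart. Each genotype had 2 libraries, and the table gives 1 value per gene and genotype, as FPKM, a fragment number normalized for transcript length and library size. No spread between libraries can be had, and the depth is unknown. The table's own Cuffdiff test is the measure of error, and nothing in the labels says whether the libraries came from separate mice, so its p-values may reflect technical spread.

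KLF proteins bind GC-rich and CACCC sequences in DNA through C2H2 zinc fingers at their C-terminal end, and differ mainly in the regions before the fingers, which recruit activators or repressors. In T cells the best known member is Klf2, which keeps resting cells quiescent and recirculating by sustaining the egress receptor S1pr1. In mice Klf2 is also known to restrain the TFH fate. FPKM is scaled to transcript length, so the levels of the members are set side by side here. Such comparisons also depend on the annotation, which no source used here gives.

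The fingers show how alike the members are. In GENCODE transcripts of GRCm38, the assembly behind mm10, a finger coding stretch was found in all 10 members. The search used a fixed finger spacing, which sets the length at 243 bases, so the equal length is not a finding. Over the 45 pairs of members the identity of this stretch ranged from 57.2% to 81.1% of bases, with a median of 65.8%. The closest pair was Klf6 and Klf7 (81.1%). Klf2 and Klf4 followed, as did Klf3 and Klf12, with 78.2% identity in each pair, and then Klf10 and Klf11 with 76.1%. By bases Klf9 was closest to Klf13 (72.8%), whereas Klf13 was slightly closer to Klf11 (73.7%). By encoded amino acids Klf13 was closer to Klf9 (81.5%) than to Klf11 (79.0%). Amino acid identity of the fingers ranged from 60.5% to 95.1% over the pairs, with a median of 69.1%. The stretches of Klf2 and Klf4 are shown because this close pair holds the member at the highest level and the member with the lowest p. Capitals mark the 53 bases at which they differ from each other.

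Klf2: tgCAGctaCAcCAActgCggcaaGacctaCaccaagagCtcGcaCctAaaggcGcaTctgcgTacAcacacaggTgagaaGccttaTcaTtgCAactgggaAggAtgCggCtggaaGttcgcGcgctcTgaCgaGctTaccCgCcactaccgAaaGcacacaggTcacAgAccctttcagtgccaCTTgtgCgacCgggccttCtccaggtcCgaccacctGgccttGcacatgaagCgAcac

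Klf4: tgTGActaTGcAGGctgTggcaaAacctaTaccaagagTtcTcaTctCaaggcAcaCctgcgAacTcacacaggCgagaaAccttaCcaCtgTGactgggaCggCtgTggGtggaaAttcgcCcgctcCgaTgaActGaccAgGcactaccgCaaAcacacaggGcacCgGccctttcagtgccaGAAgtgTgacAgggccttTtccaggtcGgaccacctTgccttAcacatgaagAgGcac

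Between the whole transcripts used here the longest run of identical bases was 26, in Klf6 and Klf7, and the median over the 45 pairs was 14. No source used here gives the read length. In the GENCODE annotation the table's Klf3, Klf7, Klf9 and Klf13 loci overlap other annotated genes. Of these the table lists E030018B13Rik, which lies opposite Klf13 and stood at 0.182 FPKM for WT and 0.492 FPKM for Etv5 cKO, and Mir6899 in Klf7 and Mir1192 in Klf9, which are listed at 0.

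**Figure D1:**
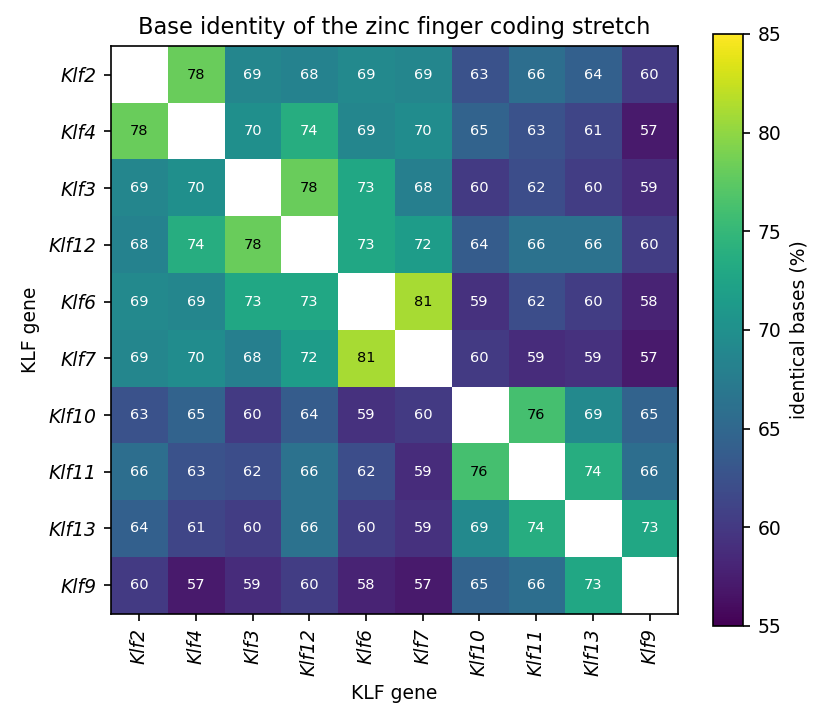
Percent of identical bases in the zinc finger coding stretch for each pair of KLF genes (both axes), with the colour scale in percent. The brightest squares are Klf6 with Klf7 (81.1%), Klf2 with Klf4 and Klf3 with Klf12 (78.2% each) and Klf10 with Klf11 (76.1%).

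The promoters were examined because Etv5 is a factor of the ETS family, which binds DNA around a GGAA core. RefSeq (GRCm38.p6) gave a promoter for 9 of the 10 members and none for Klf10, and the 250 bases before each start were searched on both strands. The ETS site CCGGAA was present in 0 of the 9 windows, against 12.03% of all 32851 promoter windows of the same length. With only 9 windows, a count of 0 does not set the members apart from that share. Only this exact sequence was searched, and other sequences with a GGAA core, such as those in the Klf4 and Klf9 windows below, were not counted. The GC box GGGCGGG, a sequence bound by SP and KLF factors, was in 5 of the 9 windows (Klf2, Klf3, Klf4, Klf11 and Klf13), against 23.4% of all windows. The members' windows had a median GC content of 71.2%, against 52.4% for all windows. The E-box CACGTG was in 3 of the 9 windows (Klf4, Klf6 and Klf11), against 6.02% of all. The CACCC box CCACACCC occurred in 1 member (Klf12) and 3.2% of all windows, and the cyclic AMP response element TGACGTCA in 0 members and 1.55% of all. These matches describe the letters of the windows and are not evidence of binding. The windows of Klf4, with the lowest p of the family, Klf2, with the highest level, and Klf9, with the largest difference upward, are printed on their own strand with GC boxes and E-boxes in capitals. The Klf4 window lies at chr4:55532476-55532725 on the minus strand, the Klf2 window at chr8:72318812-72319061 on the plus strand and the Klf9 window at chr19:23140976-23141225 on the plus strand.

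Klf4: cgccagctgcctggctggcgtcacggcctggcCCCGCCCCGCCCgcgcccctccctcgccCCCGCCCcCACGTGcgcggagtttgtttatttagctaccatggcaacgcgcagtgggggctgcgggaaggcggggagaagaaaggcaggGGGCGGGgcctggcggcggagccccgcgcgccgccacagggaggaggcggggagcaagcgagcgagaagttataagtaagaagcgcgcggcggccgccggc

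Klf2: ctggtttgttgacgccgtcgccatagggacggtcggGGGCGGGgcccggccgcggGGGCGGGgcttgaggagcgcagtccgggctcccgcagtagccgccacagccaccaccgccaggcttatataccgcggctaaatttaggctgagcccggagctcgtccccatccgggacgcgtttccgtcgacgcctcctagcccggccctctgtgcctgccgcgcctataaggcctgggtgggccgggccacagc

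Klf9: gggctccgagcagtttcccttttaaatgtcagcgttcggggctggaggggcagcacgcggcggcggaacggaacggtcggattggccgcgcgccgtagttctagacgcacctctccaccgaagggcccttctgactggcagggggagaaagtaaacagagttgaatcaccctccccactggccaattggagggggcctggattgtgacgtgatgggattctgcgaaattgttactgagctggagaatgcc

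The Klf4 window held 4 GC boxes, of which the first pair share bases, and 1 E-box. The Klf2 window held 2 GC boxes, and the Klf9 window held neither motif and had a GC content of 59.6%, against 74.0% for Klf4.

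The comparison asked which transcripts differ between WT and Etv5-deficient TFH cells. The target gene Etv5 fell: its level was 5.24 FPKM in WT against 2.12 FPKM in the cKO (log2 fold change -1.31, and adjusted p = 0.0181 for Cuffdiff in the authors' deposited table). The 10 listed TFH and T cell markers were all detected, with a summed level of 2136 FPKM for WT against 2014 FPKM for the cKO. None was called, with 8 lower and 2 higher in Etv5 cKO, while 51.1% of all tested genes were lower. The median log2 fold change of these markers was -0.09. Bcl6, the regulator that defines TFH cells, stood at 95.9 and 86.9 FPKM, the sorting markers Cxcr5 at 183 and 158 FPKM and Pdcd1 at 173 and 154 FPKM. The TFH cytokine gene Il21 had the lowest p of the list, at 66.1 and 49.7 FPKM (log2 fold change -0.41, unadjusted p = 0.0197, adjusted p = 0.999 in the authors' deposited table). Several lists of markers of other blood cells were higher in Etv5 cKO. Of all tested genes 48.9% were higher and 0.346% were called. The 8 rows of erythroid markers, all higher, summed to 125 and 570 FPKM, with 5 called, and all 11 tested of 12 monocyte and macrophage markers were higher, with 1 called and sums over the 12 of 110 and 156 FPKM. Of the granulocyte markers 6 were tested, 4 higher and 2 lower with 1 called, and the list summed to 9.77 and 19.3 FPKM.

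All 10 KLF genes were tested, and Cuffdiff called 0 of them at an adjusted p below 0.05, where 0.346% of all 11569 tested genes were called. At an unadjusted p below 0.05 there was 1 member, Klf4, where 2.4% of all tested genes lay. The adjusted p of the other 9 members was 0.999 each. Of the 10 members 4 had a lower value in Etv5 cKO (Klf4, Klf6, Klf7 and Klf10) and 6 a higher one, while 51.1% of all tested genes were lower. The median log2 fold change of the members was 0.07, against -0.0033 over all tested genes. Summed over the members, the transcript level was 263 FPKM for WT and 269 FPKM for Etv5 cKO. The members' total was 102% of WT, with single members differing in both directions. Summed over all listed genes, FPKM in Etv5 cKO was likewise 102.2% of WT. A p that misses the threshold does not show that the levels were equal.

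The family spanned a wide range of levels. Klf2, Klf3, Klf6 and Klf13 together held 85.8% of the summed FPKM in WT and 88.2% in Etv5 cKO. Klf2 was the highest member in both genotypes, and 8.83% of all tested genes had a higher mean level. Klf12 was the lowest, and 98.8% of tested genes lay above it. The order of the members was the same in both genotypes, except that Klf4 was seventh and Klf11 eighth in WT and the reverse held in Etv5 cKO. Without a spread between libraries, it cannot be said which neighbours in that order differ. In 4 of the close pairs by finger sequence, and in Klf13 with Klf9, one gene stood well above the other in both genotypes. The level of Klf3 was 110 times that of Klf12 in WT and 112 times in Etv5 cKO, and that of Klf6 was 8.05 and 9.41 times that of Klf7. Klf13 stood at 24.7 and 16.7 times Klf9, and Klf10 at 5.54 and 4.03 times Klf11. The level of Klf2 was 12.5 times that of Klf4 in WT and 23.1 times in Etv5 cKO. This pairing was drawn up after the values were seen.

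**Figure D2:**
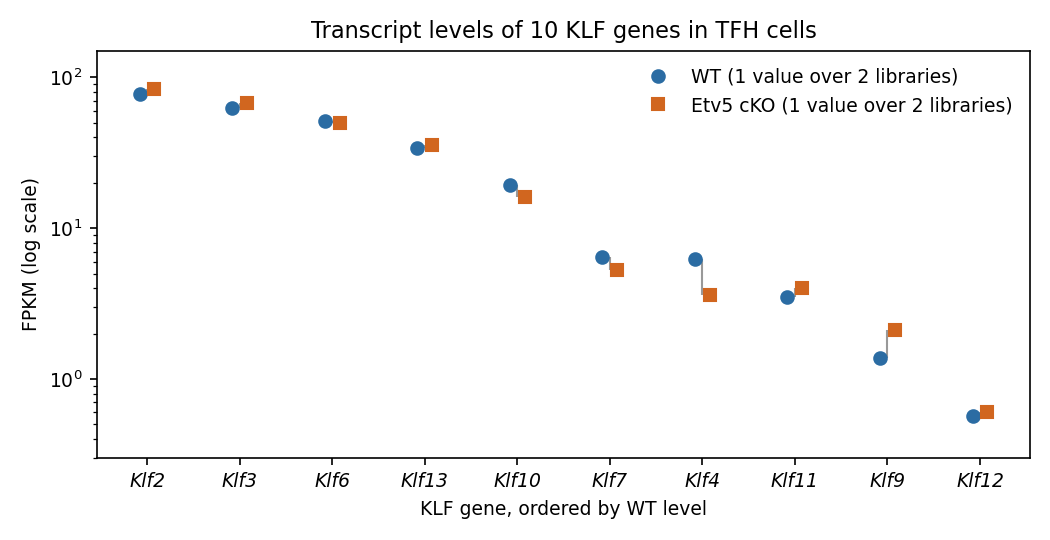
Transcript levels of the 10 KLF genes (FPKM on a log axis, genes ordered by WT level), with circles for WT and squares for Etv5 cKO, each 1 deposited value over 2 libraries with no error available. Klf2 is highest at 77.8 and 83.7 FPKM and Klf12 lowest at 0.569 and 0.608 FPKM, and the widest gaps between genotypes are those of Klf4 and Klf9.

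Klf4 is known to restrain the proliferation of T cells, with the cell cycle inhibitor Cdkn1a among its targets, and is also a regulator of monocytes. It lies on mm10 chromosome 4 from 55527137 to 55532475 on the minus strand and is protein coding. The Klf4 level was 6.21 FPKM in WT and 3.62 FPKM in the cKO, or 58.4% of WT. The log2 fold change of -0.78 had an unadjusted p of 0.0041 in the authors' deposited table and did not pass over all genes (Cuffdiff adjusted p = 0.539). A p this low or lower was held by 88 tested genes, or 0.761% of them, and 2.33% of tested genes had a log2 fold change of at least this size in either direction. Klf4 is a gene of low level, with 75.1% of tested genes above it, and adding a pseudocount of 1 or 5 FPKM gave log2 fold changes of -0.64 and -0.38. In these bulk libraries fewer cells that hold a transcript and less transcript per cell cannot be told apart. The monocyte and macrophage markers, whose cells can also express Klf4, were higher in Etv5 cKO (median log2 fold change 0.42, or 0.21 with a pseudocount of 5 FPKM), which is the opposite direction to Klf4. Their part in the Klf4 value was not tested. Cdkn1a stood at 3.32 and 4.47 FPKM (unadjusted p = 0.162 in the authors' deposited table), and was not called.

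Klf2, the member closest to Klf4 by finger sequence, lies on mm10 chromosome 8 from 72319062 to 72321654 on the plus strand. It stood at 77.8 FPKM for WT and 83.7 FPKM for Etv5 cKO, a log2 fold change of 0.11 (unadjusted p = 0.559, Cuffdiff adjusted p = 0.999 in the authors' deposited table). Among tested genes 43.0% had a log2 fold change of at least this size. Klf2 and Klf4 are also factors of endothelial cells, and of the 5 endothelial markers listed Tek was at 0 and Kdr and Cdh5 were below 0.02 FPKM in both genotypes. The other 2 were tested and higher in Etv5 cKO without being called, Egfl7 at 0.735 and 1.02 FPKM and Pecam1, which T cells also express, at 48.6 and 50.5 FPKM. Their part in the Klf2 and Klf4 values was not tested. Of the 7 T cell trafficking genes listed under Klf2 none was called and none had an unadjusted p below 0.05, with 5 higher and 2 lower in Etv5 cKO and a median log2 fold change of 0.15. S1pr1, the receptor for egress into lymph and blood, stood at 81.1 and 85.6 FPKM in WT and Etv5 cKO. S1pr4, a related lipid receptor, stood at 55.3 and 64.4 FPKM. Ccr7, which guides T cells to T zones, stood at 26.3 and 26.2 FPKM. The integrin chains Itgb7 and Itga4 stood at 227 and 251 FPKM and at 124 and 122 FPKM. Cd69, which antagonizes S1pr1 at the cell surface, stood at 48.8 and 57.2 FPKM. No gene of the list passed the test. The list pools Cd69 with S1pr1, which Cd69 antagonizes, so its count of higher genes has no single reading.

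Klf2 is known in mouse T cells to raise regulators that oppose the TFH fate. Of the 3 listed, Prdm1, which encodes Blimp-1, stood at 6.91 and 6.05 FPKM, the Th1 regulator Tbx21 at 9.03 and 7.65 FPKM and the Th2 regulator Gata3 at 54.3 and 59.8 FPKM. None was called, and none had an unadjusted p below 0.05. Of 13 genes upstream of Klf2 (FOXO and MEF2 factors, the MEK5 and ERK5 kinases and ubiquitin ligases) 12 were tested, none was called and none had an unadjusted p below 0.05. Foxo1, the activator of Klf2 in resting T cells, stood at 61.0 and 60.4 FPKM. The ubiquitin ligase Wwp1, known to mark the Klf2 protein for degradation, stood at 6.42 and 7.67 FPKM, the largest log2 difference among those tested (log2 fold change 0.26, unadjusted p = 0.198 in the authors' deposited table). The kinase gene Mapk7, which encodes ERK5, stood at 11.9 and 10.6 FPKM. Of 14 quiescence genes 13 had lower values in Etv5 cKO, where 51.1% of all tested genes were lower. The median log2 fold change of the list was -0.05, but the 1 called gene went the other way. It was Il7r, the interleukin-7 receptor of resting T cells, which rose from 38.8 to 62.8 FPKM (log2 fold change 0.69, and adjusted p = 0.0351 for Cuffdiff in the authors' deposited table). The lowest p after it was that of Tob1, an antiproliferative gene, at 19.2 and 15.7 FPKM (log2 fold change -0.29, unadjusted p = 0.164 in the authors' deposited table).

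**Figure D3:**
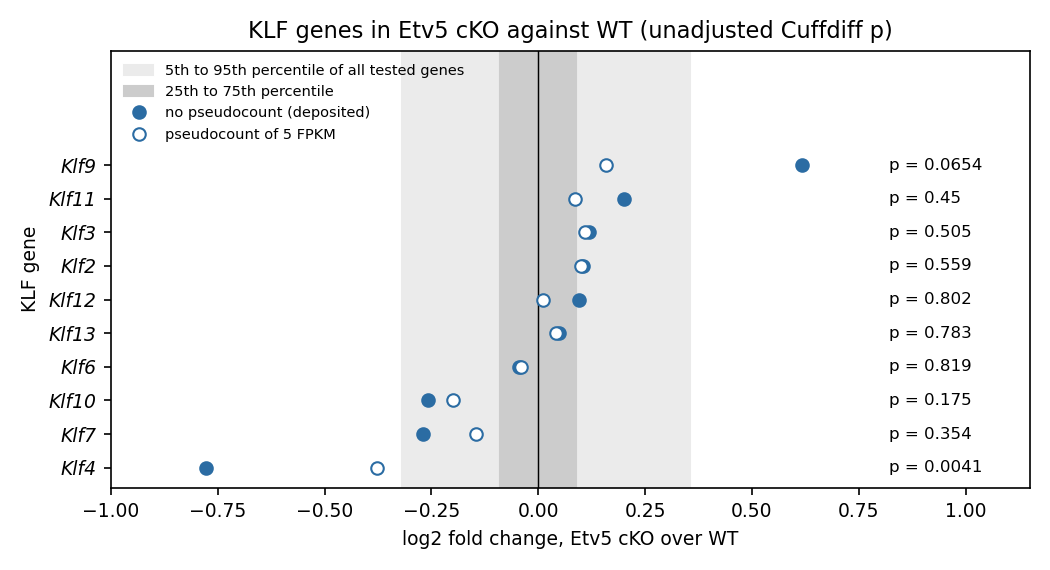
Each KLF gene is plotted by its log2 fold change in Etv5 cKO over WT (filled circles without and open circles with a pseudocount of 5 FPKM), with the unadjusted Cuffdiff p at the right and grey bands for the 5th to 95th and 25th to 75th percentiles of all tested genes. Klf4 (-0.78) and Klf9 (0.62) lie outside the wider band, which runs from -0.32 to 0.35, and no gene was called over all genes.

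Klf3 and Klf12 are repressors that recruit the CtBP corepressors. Klf3 (mm10 chromosome 5, 64803523 to 64830129, plus strand) stood at 62.5 FPKM for WT and 67.8 FPKM for Etv5 cKO, a log2 fold change of 0.12 (unadjusted p = 0.505 in the authors' deposited table). Klf12 (mm10 chromosome 14, 99870640 to 100149796, minus strand) stood at 0.569 and 0.608 FPKM (log2 fold change 0.10, unadjusted p = 0.802 in the authors' deposited table). After quantile normalization the Klf12 log2 fold change was -0.04, so its direction depends on the scaling. The corepressor gene Ctbp1 stood at 86.3 and 92.9 FPKM, and Ctbp2, at 0.365 and 0.360 FPKM, was not tested.

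Klf6 and Klf7 share most of their finger sequence. Klf6, an immediate early gene in many cells (mm10 chromosome 13, 5861489 to 5870393, plus strand), stood at 51.6 FPKM for WT and 50.01 FPKM for Etv5 cKO, the smallest log2 difference of the family (log2 fold change -0.04, unadjusted p = 0.819 in the authors' deposited table). Klf7, best known from neurons (mm10 chromosome 1, 64035671 to 64121389, minus strand), stood at 6.41 and 5.32 FPKM, a log2 fold change of -0.27 (unadjusted p = 0.354 in the authors' deposited table). Both were lower in Etv5 cKO, and neither passed the test.

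Klf10 and Klf11 are repressors induced by TGF-beta that work with the Sin3 corepressors. Klf10 (mm10 chromosome 15, 38291464 to 38300711, minus strand) stood at 19.3 FPKM for WT and 16.1 FPKM for Etv5 cKO, a log2 fold change of -0.26 (unadjusted p = 0.175 in the authors' deposited table). Klf11 (mm10 chromosome 12, 24651371 to 24662782, plus strand) stood at 3.48 and 4.01 FPKM, a log2 fold change of 0.20 (unadjusted p = 0.450 in the authors' deposited table). The pair differed in direction without passing the test, and the difference between them was not tested. All 9 listed genes for TGF-beta1, its receptors and SMADs were tested, and 8 were lower, against 51.1% of all tested genes. None of the 9 was called or had an unadjusted p below 0.05, and their median log2 fold change was -0.03. Skil, a SMAD corepressor induced by TGF-beta, had the lowest p of them at 22.8 and 19.3 FPKM (log2 fold change -0.24, unadjusted p = 0.183 in the authors' deposited table), followed by the inhibitory SMAD gene Smad7 at 9.71 and 8.61 FPKM. Foxp3, the regulator of regulatory T cells and a reported target of Klf10, stood at 65.3 and 66.3 FPKM. The sorting markers named above do not include Foxp3, so cells that express it were not set apart by them. The part of such cells in the KLF values was not tested. Of the 11 corepressor and coactivator genes 10 were tested, none was called, and none had an unadjusted p below 0.05. Sin3a stood at 29.3 and 27.8 FPKM, Sin3b at 65.1 and 68.6 FPKM, and the acetyltransferase Ep300 at 29.1 and 25.8 FPKM (log2 fold change -0.17, unadjusted p = 0.330 in the authors' deposited table).

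Klf13 is known from T cells as an activator of the chemokine gene Ccl5, and Klf9 as a gene induced by glucocorticoid and thyroid hormones. Klf13 (mm10 chromosome 7, 63886351 to 63938915, minus strand) stood at 34.2 FPKM for WT and 35.4 FPKM for Etv5 cKO, a log2 fold change of 0.05 (unadjusted p = 0.783 in the authors' deposited table). Ccl5 stood at 53.3 and 62.7 FPKM (log2 fold change 0.23, unadjusted p = 0.285 in the authors' deposited table). Klf9 (mm10 chromosome 19, 23141226 to 23166911, plus strand) stood at 1.38 FPKM for WT and 2.12 FPKM for Etv5 cKO, 153% of WT and the largest difference upward of the family (log2 fold change 0.62). It did not pass the test (unadjusted p = 0.0654, Cuffdiff adjusted p = 0.999 in the authors' deposited table). With pseudocounts of 1 and 5 FPKM the Klf9 log2 fold change was 0.39 and 0.16, and 88.7% of tested genes had a higher mean level. Of the 7 glucocorticoid-responsive genes listed beside Klf9, 6 were higher and 1 lower in Etv5 cKO, with a median log2 fold change of 0.15, while 48.9% of all tested genes were higher. Cuffdiff called 0 of them, and 1 had an unadjusted p below 0.05, the zinc finger gene Zbtb16 at 0.974 and 1.55 FPKM (unadjusted p = 0.0267 in the authors' deposited table). Fkbp5, an immunophilin that binds the receptor complex, stood at 59.1 and 74.5 FPKM (unadjusted p = 0.0617 in the authors' deposited table), and Tsc22d3, which encodes the mediator GILZ, at 27.7 and 33.2 FPKM. The receptor gene Nr3c1 stood at 32.0 and 28.9 FPKM. Erythroid and myeloid markers were higher in the same cKO values, and their part in the Klf9 and Zbtb16 values was not tested.

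Klf4, Klf6 and Klf10 are induced early after growth factor stimulation in other cell types, whereas Klf2 falls when T cells are stimulated through the antigen receptor, as does Klf4 in CD8 T cells of mice. The KLF values are therefore set beside those of immediate early genes without being counted among them. Of 19 immediate early genes 18 were tested, 15 of them lower in Etv5 cKO and 3 higher. Over all tested genes 51.1% were lower and 0.346% were called. The list of immediate early genes had a median log2 fold change of -0.11. Cuffdiff called 1, the AP-1 subunit gene Fosb, which fell, from 52.5 FPKM in WT to 31.0 FPKM (log2 fold change -0.76, and adjusted p = 0.0434 in the authors' deposited table). An unadjusted p below 0.05 was held by 3, all lower, where 2.4% of all tested genes lay. The other 2 were Fos (180 and 121 FPKM, unadjusted p = 0.00555) and Egr2 (38.4 and 28.6 FPKM, unadjusted p = 0.0218), both from the authors' deposited table. Of the KLF genes, Klf4 had a log2 fold change of -0.78, close in size to that of Fosb, from a lower level. The log2 fold changes of Klf6 (-0.04) and Klf10 (-0.26) were smaller than that of Fos (-0.58).

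The KLF and SP genes outside the 10 members were compared because they bind similar GC-rich sequences. Of 16 such genes 8 were tested, 6 lower and 2 higher, while 51.1% of all tested genes were lower. The 8 genes had a median log2 fold change of -0.03. Cuffdiff called 0, and 1 had an unadjusted p below 0.05. That gene was Klf1, the erythroid KLF, at 2.03 FPKM for WT and 3.88 FPKM for Etv5 cKO (log2 fold change 0.94, unadjusted p = 0.0105, adjusted p = 0.898 in the authors' deposited table). The erythroid markers were higher in the same direction, and their part in the Klf1 value was not tested. Sp3 and Sp1, broadly expressed factors, stood at 74.5 and 69.4 FPKM and at 41.6 and 39.7 FPKM, levels between those of Klf13 and Klf2. Klf16 stood at 14.4 and 14.8 FPKM and Klf8 at 1.54 and 1.52 FPKM. Klf5, Klf15 and Klf17 were below 0.2 FPKM in both genotypes and were not tested, and Klf14, Sp7 and Sp8 were listed at 0.

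**Figure D4:**
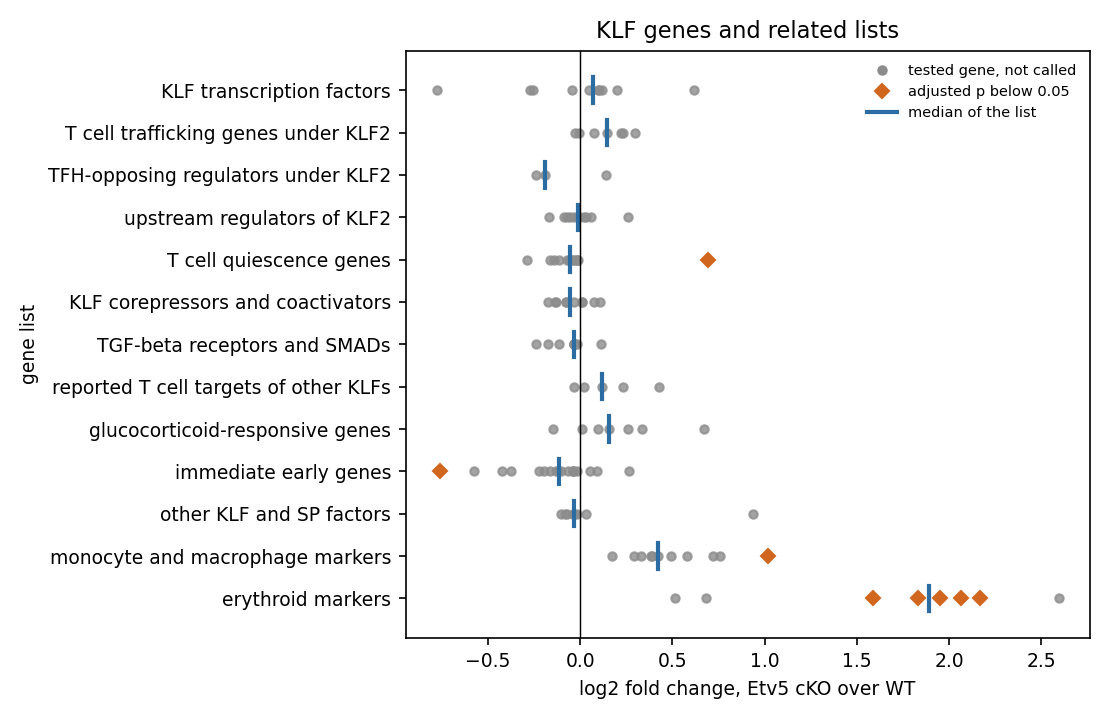
Each tested gene is plotted by its log2 fold change in Etv5 cKO over WT (grey circles, or orange diamonds where called at an adjusted p below 0.05) of the KLF genes and related lists, with a blue bar at the median of each list. The KLF genes spread from -0.78 to 0.62 around a median of 0.07 with no called gene, whereas erythroid markers have a median of 1.89 with 5 called.

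Lists for lymphoid, dendritic, platelet and endothelial cells gave smaller sums or differences. Of the 6 B cell markers 3 were tested, with 1 lower and 2 higher and sums of 18.9 and 18.2 FPKM, mostly Cd22 at 12.98 and 10.7 FPKM. Of the 6 CD8 T and NK markers 5 were tested, with 4 higher and 1 lower and sums of 76.7 and 68.7 FPKM, mostly Nkg7 at 55.6 and 45.0 FPKM, while Cd8a stood at 0.0519 and 0.0800 FPKM. Dendritic cell markers summed to 1.75 and 2.14 FPKM with 1 of 5 tested, and platelet markers to 1.07 and 1.51 FPKM with 0 of 5 tested. None of these 4 lists held a called gene. The 5 endothelial markers summed to 49.4 and 51.6 FPKM, nearly all from Pecam1.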

How the data were processed

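Reads were processed with TopHat2 2.0.13 and Cuffdiff 2.2.0 on mm10, per the submitters' processing notes. Per the file headers, the authors entered both libraries of a genotype as 1 Cuffdiff condition. The table holds the authors' FPKM values, the deposited log2 fold change (Etv5 cKO over WT, without a pseudocount), the deposited ratio of the FPKM values, the deposited test score (not used here) and the deposited p-value and adjusted p-value. No source used here gives the annotation, the strand setting or the scaling of libraries. Of 23996 genes 11569 were tested, and 1 empty line was not analysed here.

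A gene was called at an adjusted p below 0.05. The members and lists were chosen with earlier results of these data known. Of 167 list symbols 165 were found, with older symbols matched through RefSeq. The text names all members, the genes of the trafficking list (1 is not reported here, though it is in the list's counts) and the TFH-opposing list, and called or lowest-p genes of other lists; others, such as Foxo1 and Ctbp1, were chosen after their values were seen. Start positions are 1-based (deposited start plus 1). Benjamini-Hochberg adjustment and quantile normalization were tested on simulated data. Finger coding stretches came from the longest reading frame with KLF-spaced C2H2 fingers in GENCODE M21 transcripts. The spacing, and so the length, was fixed by the search, and the stretches were aligned without gaps. Alternatives were pseudocounts of 1 and 5, a minimum mean of 1 FPKM, median centring, quantile normalization and other adjustments. Python 3.11.15, pandas 2.3.3 and matplotlib 3.10.9 were used.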

Additional observations from a re-analysis of the deposited data

How the results depend on the processing

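No KLF gene was called at an adjusted p below 0.1, or with p-values adjusted over the 10863 tested genes that reach a mean of 1 FPKM. None was called with p-values adjusted over every listed gene either. That outcome was fixed, because including the genes not tested can only raise an adjusted p. The Klf4 adjusted p was 0.539 as deposited, 1.0 over every listed gene and 0.578 with that minimum. The count of lower members was 4 with both pseudocounts, which cannot change the direction of a difference. It was also 4 with the minimum of 1 FPKM, which left 9 members. Median centring, which subtracted only -0.0033, likewise gave 4, where the smallest log2 difference of a member was -0.044 (Klf6). After quantile normalization the count was 5. Over these alternatives the members' median log2 fold change lay between 0.0093 and 0.076, positive but close to 0. The summed level in Etv5 cKO was 102% of WT as deposited, 101.5% after quantile normalization and 99.7% without Klf2, and no other alternative was run for it. The 1 value whose sign turned was that of Klf12, at -0.036 after quantile normalization. Of the single members and list medians 19 values moved by more than 0.1 on the log2 scale without changing sign, most of them with a pseudocount. With 5 FPKM added, the log2 fold change was -0.14 for Klf7 and 0.086 for Klf11, beside the values given for Klf4 and Klf9. The same pseudocount lowered the median log2 fold change of the erythroid markers from 1.89 to 0.93, of the monocyte and macrophage markers from 0.42 to 0.21 and of the granulocyte markers from 1.06 to 0.35. The B cell, dendritic and endothelial medians, each over 3 tested genes or fewer, also moved toward 0. No paired analysis was possible because the table joins both libraries of a genotype in 1 value. For the same reason no replicate was left out and no second tool was run. The limit on every value is the unknown depth and the missing spread between libraries.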
